A study of Mus musculus with 43 samples.

Results

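Whole lungs of mice given antibodies against both IL-33 and IL-4Rα were compared with lungs of mice given the antibody against IL-4Rα plus an isotype control antibody, which asks what blocking IL-33 adds to blocking IL-4Rα. The 12 libraries were picked by the treatment named in their titles, out of 43 RNA sequencing libraries in the series. The combination group (n = 5) received itepekimab, an antibody to IL-33, and dupilumab, an antibody to IL-4Rα. The anti-IL-4Rα group (n = 7) received dupilumab and isotype antibody. Both groups had 19 weeks of house dust mite extract (HDM), given into the nose. Per the design text all mice were female, of a mixed 129S6/C57BL/6 background and 8 to 12 weeks of age, and those used to assess the antibodies carried human sequence in place of mouse Il4, Il33 and the part of Il4ra that codes for the outside of the receptor. The remaining HDM groups at 19 weeks received itepekimab with isotype antibody (anti-IL-33, n = 6), isotype antibody alone (n = 7) or no antibody (n = 7). A group with 11 weeks of HDM (n = 6) and a saline group (n = 5) complete the series. The labels give neither the start of antibody dosing for these libraries nor whether each library is a separate mouse, so the p-values measure the spread between libraries.

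IL-33 is stored in the nuclei of epithelial and stromal cells and is released when these are damaged. Its receptor ST2, the product of Il1rl1, sits on group 2 innate lymphoid cells, mast cells, regulatory T cells and other leukocytes, and the innate lymphoid cells answer with IL-5 and IL-13. IL-4Rα is the chain shared by the receptors for IL-4 and IL-13 and acts through the transcription factor STAT6. In mouse lung that route is known to switch on eosinophil-attracting chemokines in stroma and epithelium, arginase and RELMα in macrophages, and mucus genes in airway epithelium. The 2 antibodies therefore act at different steps of the response to house dust mite, and IL-33 also has targets that do not pass through IL-4Rα.

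Levels are given in CPM, which are the deposited expected counts scaled to the depth of each library with trimmed mean (TMM) factors. Total counts were 15332166 to 19632516 in the combination libraries and 14939129 to 21250817 in the anti-IL-4Rα libraries. All 12 libraries carried lung markers, with the surfactant gene Sftpc at 8237 to 25726 CPM in combination libraries and 7472 to 24953 CPM in anti-IL-4Rα libraries. Libraries differed in GC slope, the tilt of a library's expression towards GC-rich transcripts (log2 units per 10 percentage points of transcript GC, relative to the mean of all 43 libraries). A slope above 0.75, called steep here, was found in 3 of 5 combination libraries (replicates 1, 5 and 8) and 3 of 7 anti-IL-4Rα libraries (replicates 2, 6 and 8). The mean slope was 0.320 ± 0.838 in combination libraries (SD, n = 5) and 0.251 ± 0.647 in anti-IL-4Rα libraries (SD, n = 7), and the difference of 0.0693 had a 2-sided exact permutation p of 0.864 over 792 arrangements. The medians lay further apart, at 0.812 in combination and -0.0792 in anti-IL-4Rα libraries. Combination replicate 2 had the lowest slope of the 12 (-0.942). Anti-IL-4Rα replicate 2 stood apart, with the steepest slope of the 12 (1.03), the lowest library scaling factor (0.46) and the highest summed level of red blood cell genes. Mitochondrially encoded genes made up 12.6% and 21.7% of the counts in combination replicates 1 and 2, 3.68% to 5.08% in the other 3 combination libraries, and 2.44% to 11.3% in the anti-IL-4Rα libraries. The main counts are given with and without adjustment for the slope.

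A small set of genes, several of them known from the type 2 response, differed when IL-33 blockade was added. The eosinophil attractant Ccl11 and the macrophage products Arg1 and Retnla were lower with both antibodies than with anti-IL-4Rα. So were the ribonuclease Rnase2a and the prostaglandin D2 receptor Ptgdr. Of 15979 genes tested with edgeR's quasi-likelihood test, 19 passed at an adjusted p under 0.05 (0.119% of genes tested), 16 of them lower (0.100%) and 3 higher (0.0188%). An unadjusted p under 0.05 was reached by 1707 genes, and the median log2 fold change over all genes was 0.04. For 8 of the 16 lower genes all 5 combination libraries lay below all 7 anti-IL-4Rα libraries, while 27 genes did so among all those tested (0.169%). All 5 combination libraries lay above all 7 anti-IL-4Rα libraries for 13 genes (0.0814%), and 0 of the 3 higher genes were among these. The calls rested on the spread estimated over all 43 libraries and on few of the 12. With the 12 libraries alone, the 4 antibody groups alone, the replicate number as a block or the library number as a covariate, 0 genes passed in either direction (lowest adjusted p 0.168, 0.0956, 0.0787 and 0.0606, with an unadjusted p under 0.05 for 603, 934, 937 and 661 genes). Library numbers were 956119 to 956130 with anti-IL-4Rα and 956155 to 956161 with both antibodies, except combination replicate 1 at 956124. Treatment and library number can therefore hardly be told apart here. Leaving out anti-IL-4Rα replicate 2 gave 278 lower and 305 higher genes, which held all 19. Leaving out combination replicate 3 or replicate 5 left 0 lower genes and 1 higher gene in each case, with an unadjusted p under 0.05 for 2262 and 1846 genes. Without combination replicate 1 there were 5 lower genes, without replicate 8 there were 9, and without anti-IL-4Rα replicate 3 there were 10.

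Ccl11 (Gene ID 20292, chr11:82057832-82062955 on mm10) encodes eotaxin-1, which draws eosinophils into tissue through the receptor CCR3. It measured 7.36, 6.66, 2.29, 3.70 and 6.65 CPM in combination replicates 1, 2, 3, 5 and 8, against a lowest value of 8.83, a median of 27.8 and a highest value of 64.4 CPM in the anti-IL-4Rα libraries. The groups did not overlap, and the log2 fold change was -2.51 ± 0.47 (SE, edgeR adjusted p = 0.0191). Isotype lungs averaged 40.8 ± 15.2 CPM (SD, n = 7). The saline libraries were at 1.78, 0.992, 8.57, 1.71 and 1.55 CPM, so that all 5 combination values lay above 4 of the 5 saline libraries and below saline replicate 3. Ccl24, the second eotaxin, was measured at 0.965 ± 1.05 CPM with both antibodies (SD, n = 5) and 7.75 ± 10.7 CPM with anti-IL-4Rα (SD, n = 7), a log2 fold change of -3.10 ± 1.07 that did not pass (adjusted p = 0.275). Ccl17 and Ccl8, attractants of T cells and of type 2 leukocytes, had log2 fold changes of 0.32 ± 0.48 and -1.19 ± 0.54 (adjusted p = 0.838 and 0.417). Of the 8 measured genes among type 2 chemokines and their receptors, 1 was lower and 0 were higher.

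Arg1 (Gene ID 11846, chr10:24915207-24927470) encodes arginase 1, which splits arginine and is a hallmark of alternatively activated macrophages. It was at 17.9, 6.73, 9.05, 14.4 and 6.19 CPM in the 5 combination libraries, against 21.8 at the lowest, 120 at the median and 837 CPM at the highest in the anti-IL-4Rα libraries. The groups stood apart, though narrowly at anti-IL-4Rα replicate 2, whose 21.8 CPM was the lowest of its group. The log2 fold change of -4.80 ± 0.93 (adjusted p = 0.0191) was the largest decrease among the 16 genes. Retnla (Gene ID 57262, chr16:48842609-48844461) encodes the secreted protein RELMα. It was at 1010 CPM in combination replicate 1, 340 in replicate 2, 327 in replicate 3, 623 in replicate 5 and 769 in replicate 8. In the anti-IL-4Rα libraries it ran between 1203 and 5396 CPM with a median of 2006, again with no overlap (log2 fold change -2.17 ± 0.47, adjusted p = 0.0334). All 5 combination values of Retnla were above the saline libraries, which averaged 57.9 ± 36.6 CPM (SD, n = 5). Arg1 was at 1.78, 1.43, 14.6, 1.67 and 1.62 CPM in the saline libraries, so that saline replicate 3 was inside the combination range and the other 4 were below every combination library.

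The Retnla promoter is shown because it is the member of this macrophage pair with an entry in the RefSeq promoter table (GRCm38.p6), and because STAT6 is known to bind it. The 250 bases before the transcription start (chr16:48842359-48842608, plus strand) are printed with capitals on a match to the palindromic letter pattern bound by STAT6, which is TTC, then any 4 bases, then GAA.
Retnla promoter: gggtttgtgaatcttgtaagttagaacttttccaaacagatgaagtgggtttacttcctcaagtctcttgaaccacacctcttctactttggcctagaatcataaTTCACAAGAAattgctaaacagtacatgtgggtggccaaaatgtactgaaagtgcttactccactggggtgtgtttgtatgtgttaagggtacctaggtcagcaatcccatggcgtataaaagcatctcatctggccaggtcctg
The match, TTCACAAGAA, covers bases -145 to -136 counted from the start. This pattern, which reads the same on both strands, was in 1585 of 27025 promoter windows of this length (5.86%). Of the 16 lower genes 13 had an entry, and 2 of these held a match (15.4%), Retnla and Rbp4. A match describes letters in the window and does not show binding.

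Rnase2a and Ptgdr were also among the 16. Of 8 measured eosinophil genes and 11 measured mast cell and basophil genes in the lists, 0 passed in either fit, with list medians of 0.16 and 0.20 against 0.04 over all genes. The lists held Rnase2a under alternatively activated macrophage genes, not under eosinophil genes. Rnase2a (Gene ID 93726, chr14:51255261-51256112), of the eosinophil-associated ribonuclease family and also known as Ear11, was at 0.932, 1.60, 0.549, 0.850 and 4.02 CPM in the combination libraries. It ran between 1.74 and 59.7 CPM with a median of 11.1 in the anti-IL-4Rα libraries, so that combination replicate 8 reached into the lower end of that group (log2 fold change -3.87 ± 0.76, adjusted p = 0.0205). Near-identical ribonuclease genes can share reads, so this value is uncertain to that extent. Ptgdr (Gene ID 19214, chr14:44851235-44859375) encodes DP1, a receptor for the mast cell product prostaglandin D2. It was at 0, 0.466, 0.137, 0.0607 and 0.0773 CPM with both antibodies, against 0.267, 1.80 and 4.64 CPM as the lowest, median and highest with anti-IL-4Rα (log2 fold change -3.74 ± 0.71, adjusted p = 0.0191). The gene is expressed at a low level, and combination replicate 2 lay above the lowest anti-IL-4Rα library, replicate 2.

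Col6a5, Corin, Stab2 and Apold1 were lower too. The lists of 20 matrix and 11 endothelial genes, which do not hold them, had 0 calls without adjustment for the slope and medians of -0.68 and 0.14. Col6a5 (Gene ID 665033, chr9:105856070-105962463), a chain of the microfibril collagen VI, averaged 3.66 ± 2.08 CPM with both antibodies (SD, n = 5) and 41.4 ± 47.7 CPM with anti-IL-4Rα (SD, n = 7), a log2 fold change of -3.51 ± 0.72 (adjusted p = 0.0223). Corin (Gene ID 53419, chr5:72299948-72504540), a membrane protease that activates atrial natriuretic peptide, was at 6.25, 11.9, 8.50, 2.91 and 2.09 CPM in the combination libraries against 3.74, 60.0 and 105 CPM as the lowest, median and highest of the anti-IL-4Rα libraries. In both genes the overlap came from steep anti-IL-4Rα libraries, and replicate 2 was the lowest of its group. Corin fell by 3.12 ± 0.67 on the log2 scale (adjusted p = 0.0334). Stab2, a scavenger receptor of sinusoidal endothelium that takes up hyaluronan, averaged 1.96 ± 0.579 CPM with both antibodies (SD, n = 5) and 5.89 ± 1.92 CPM with anti-IL-4Rα (SD, n = 7). Its log2 fold change was -1.58 ± 0.32 (adjusted p = 0.0205). The groups overlapped, as the lowest anti-IL-4Rα library was at 1.87 CPM and the highest combination library at 2.53 CPM. Apold1, an endothelial gene, averaged 0.708 ± 0.304 CPM with both antibodies (SD, n = 5) and 4.04 ± 3.17 CPM with anti-IL-4Rα (SD, n = 7), a log2 fold change of -2.48 ± 0.53 (adjusted p = 0.0334). Anti-IL-4Rα replicates 2 and 8, at 0.400 and 0.780 CPM, lay inside the combination range of 0.373 to 1.01 CPM.

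Fbp1, Rbp4, Mgam and Oit3 also passed as lower. Fbp1 (Gene ID 14121, chr13:62864753-62888298), the fructose-bisphosphatase of gluconeogenesis, was at 1.49, 0.466, 0.914, 1.52 and 0.541 CPM in the combination libraries, and its anti-IL-4Rα values ran from 2.00 over a median of 12.7 to 30.2 CPM. The groups did not overlap (log2 fold change -3.92 ± 0.79, adjusted p = 0.0205), and its saline mean of 2.24 ± 0.24 CPM (SD, n = 5) was above every combination library. Rbp4 (Gene ID 19662, chr19:38116620-38125321), the carrier of retinol in blood, ran between 5.99 and 22.0 CPM with both antibodies and between 22.0 and 159 CPM with anti-IL-4Rα, where the lowest anti-IL-4Rα library was just above the highest combination library. Its log2 fold change was -2.38 ± 0.49 (adjusted p = 0.0223). Mgam, the starch-digesting enzyme maltase-glucoamylase, changed by -2.53 ± 0.49 (adjusted p = 0.0191) and Oit3 by -2.67 ± 0.55 (adjusted p = 0.0223). For Mgam the groups overlapped, with 0.387 to 3.36 CPM with both antibodies and 2.67 to 14.7 CPM with anti-IL-4Rα. Oit3 averaged 0.583 ± 0.252 CPM with both antibodies (SD, n = 5) and 3.78 ± 1.37 CPM with anti-IL-4Rα (SD, n = 7), with no overlap.

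The remaining lower genes were Calca, Msx3 and Myom3. Calca (Gene ID 12310, chr7:114625981-114636910), which encodes calcitonin gene-related peptide, a product of sensory nerves and pulmonary neuroendocrine cells, was at 0.466, 0.799, 0.731, 1.03 and 1.70 CPM in the combination libraries and between 1.83 and 6.14 CPM, with a median of 4.06, in the anti-IL-4Rα libraries. Every combination library was below every anti-IL-4Rα library (log2 fold change -2.09 ± 0.42, adjusted p = 0.0205). Msx3 (Gene ID 17703, chr7:140046157-140049088), a homeobox gene known from the embryonic neural tube, was at 0 to 0.155 CPM with both antibodies against 0.267 to 2.70 CPM with anti-IL-4Rα (log2 fold change -3.91 ± 0.68, adjusted p = 0.0133), and was at 0 in all 5 saline libraries. Myom3, a protein of the muscle sarcomere, averaged 6.20 ± 1.22 CPM with both antibodies (SD, n = 5) and 17.8 ± 9.01 CPM with anti-IL-4Rα (SD, n = 7), a log2 fold change of -1.52 ± 0.30 (adjusted p = 0.0205). Its groups overlapped, as the lowest anti-IL-4Rα library was at 6.54 CPM and the highest combination library at 7.66 CPM. Calca, Stab2 and Myom3 were named after their values were seen, to complete the set of 16. In whole lung, fewer cells of a type and less RNA per cell cannot be told apart.

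**Figure D1:**
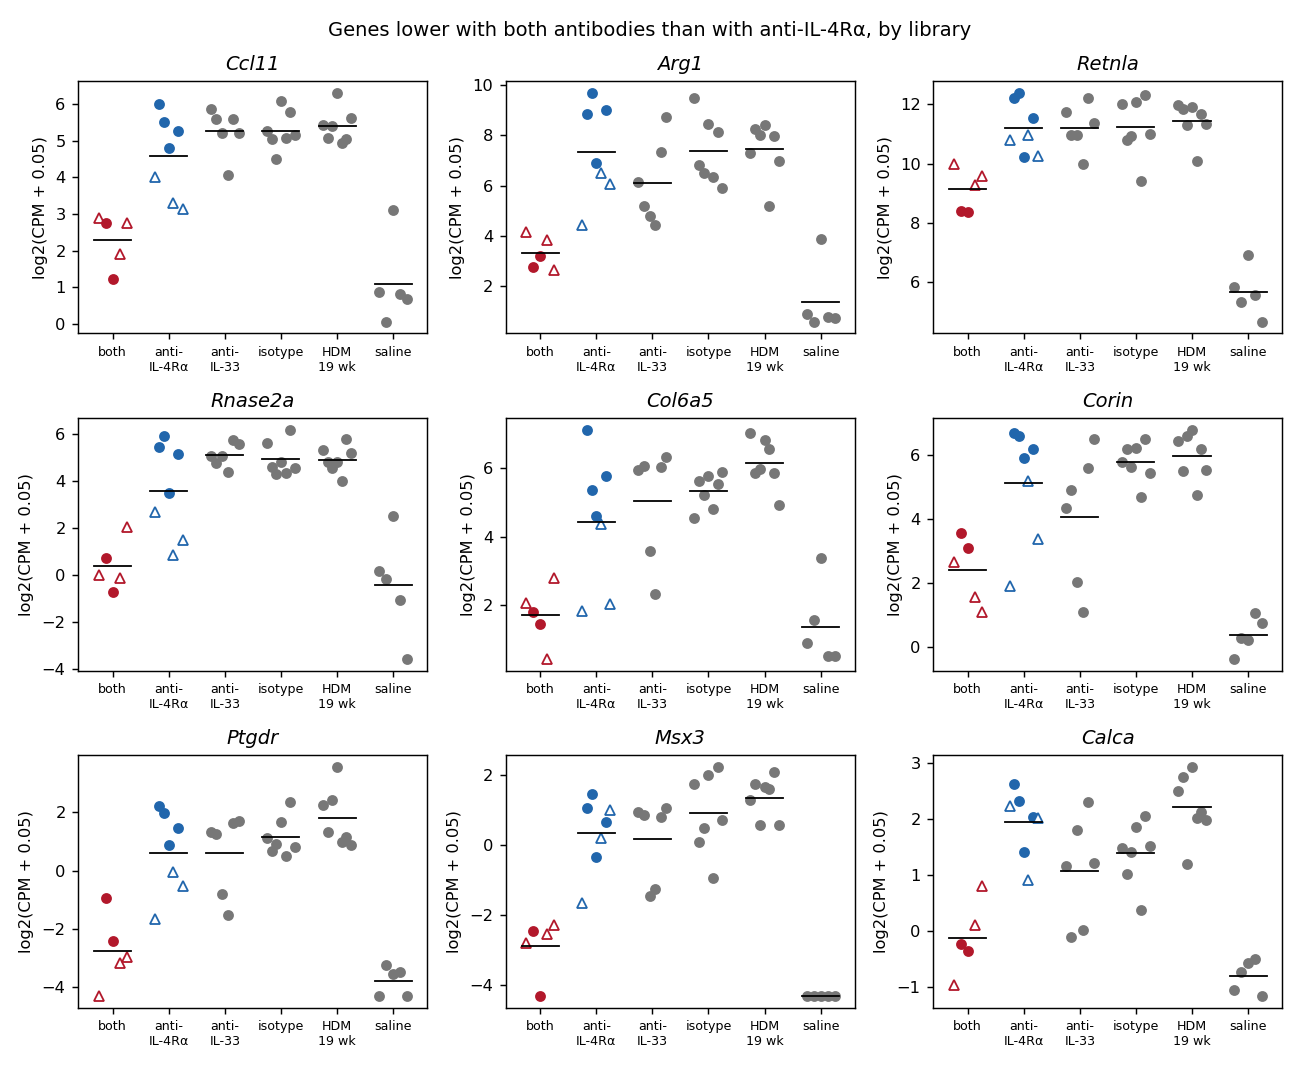
Expression of 9 of the 16 lower genes in each library, as log2(CPM + 0.05), for both antibodies, anti-IL-4Rα, anti-IL-33, isotype, HDM for 19 weeks and saline. Each point is 1 library, the bar is the group mean, and open triangles mark steep libraries of the first 2 groups; Ccl11 sits at 2.29 to 7.36 CPM with both antibodies and at 8.83 to 64.4 CPM with anti-IL-4Rα.

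Of the 3 higher genes, Vnn1 (Gene ID 22361, chr10:23894688-23905344) moved in most libraries. It encodes vanin-1, an enzyme that frees cysteamine from pantetheine. It was at 56.0, 122, 163, 67.2 and 28.6 CPM in the combination libraries, against 12.0, 18.9 and 35.9 CPM as the lowest, median and highest of the anti-IL-4Rα libraries (log2 fold change 2.07 ± 0.46, adjusted p = 0.0471). Replicate 8 was the 1 combination library inside the anti-IL-4Rα range. Kctd8, an auxiliary subunit of GABA-B receptors, was at 2.05, 2.80, 1.28, 1.03 and 0.619 CPM with both antibodies and at 0 to 0.655 CPM with anti-IL-4Rα (log2 fold change 2.18 ± 0.47, adjusted p = 0.0334). Xkrx, a relative of the Kell-associated membrane protein XK, rested on 2 libraries, with 305 and 1078 CPM in combination replicates 1 and 2, against 1.15 to 1.83 CPM in the other 3 and 1.10 to 3.35 CPM with anti-IL-4Rα. In the anti-IL-33 group 1 library reached 101 CPM. Its log2 fold change was 7.29 ± 1.20 (adjusted p = 0.00579). Those same 2 libraries had the highest mitochondrial share, and the part of this in the result was not tested.

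The next genes by p did not pass. Mmp8, the neutrophil collagenase, was at 37.6, 41.3, 25.6, 24.0 and 5.96 CPM in the combination libraries and between 2.29 and 15.1 CPM, with a median of 7.65, with anti-IL-4Rα (log2 fold change 1.87 ± 0.42, adjusted p = 0.0539). Cdc42ep3, an effector of the small GTPase Cdc42, had a log2 fold change of 0.92 ± 0.21 (adjusted p = 0.0663). Acoxl, an acyl-CoA oxidase-like gene, averaged 22.6 ± 12.4 CPM with both antibodies (SD, n = 5), 4.32 ± 3.10 CPM with anti-IL-4Rα (SD, n = 7) and 53.3 ± 13.6 CPM in saline (SD, n = 5), with a log2 fold change of 2.41 ± 0.56 between the antibody groups (adjusted p = 0.0686).

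**Figure D2:**
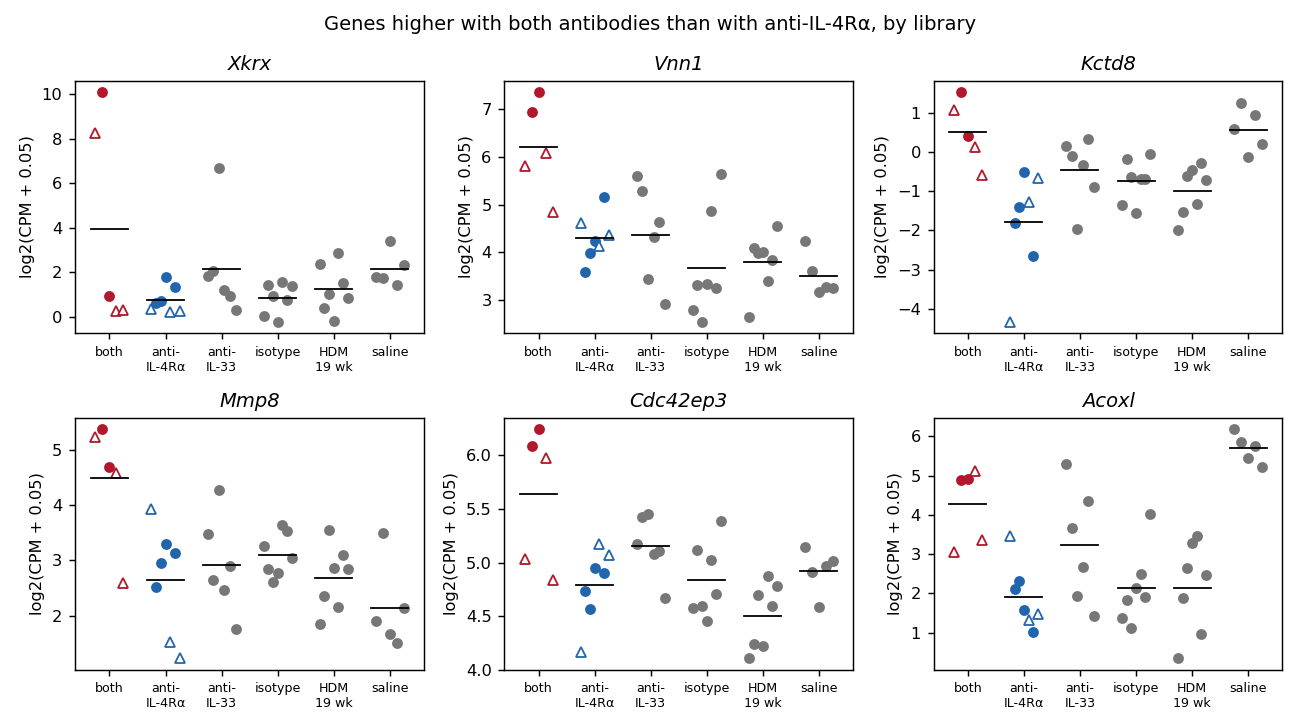
The 3 genes higher with both antibodies than with anti-IL-4Rα (top row) and the next 3 by p, which did not pass (bottom row), as log2(CPM + 0.05) per library in the same 6 groups. Each point is 1 library, the bar is the group mean and open triangles mark steep libraries of the first 2 groups only. Xkrx reaches 305 and 1078 CPM in 2 combination libraries and stays between 1.15 and 1.83 CPM in the other 3.

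The lower genes were, with 1 exception, genes that house dust mite had raised. Between 19 weeks of HDM and saline, 2 groups that share no library with this comparison, 3072 genes were higher (19.2% of genes tested) and 2490 lower (15.6%). Of the 16 genes lower with both antibodies 15 were among those raised (93.8%), and these made up 0.488% of the raised genes. Arg1 had been raised by 5.63 on the log2 scale, Retnla by 5.70, Corin by 5.71 and Ccl11 by 3.91. Apold1 was the exception, with 1.17 (adjusted p = 0.0567). Of the 3 higher genes Kctd8 had been lowered by HDM (log2 fold change -1.59, adjusted p = 0.00518) and 0 had been raised. Over all 3072 raised genes the median log2 fold change between the antibody groups was 0.01, against 0.04 over all genes tested, and 48.6% of them were negative, against 46.0% of all genes. With each library's GC slope added to the model, a fit described below, 294 of 478 lower genes were HDM-raised (61.5%, or 9.47% of the 3103 genes that HDM raised in that fit), and 62 of 122 higher genes were HDM-lowered (50.8%). The median of the HDM-raised genes was then -0.32 with 81.1% negative, against -0.03 and 53.4% over all genes.

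Set against isotype, which both antibody groups can be compared with, all 16 genes passed as lower with both antibodies. None of the 16 passed against isotype with anti-IL-4Rα or with anti-IL-33 alone, where 0 and 3 had an unadjusted p under 0.05 in edgeR. Among all genes tested 0 were higher and 0 lower in either of those contrasts (0%), so this count is no different for the 16 genes. Ccl11 changed by -2.94 with both antibodies (adjusted p = 0.00122), by -0.44 with anti-IL-4Rα (adjusted p = 0.619) and by 0.01 with anti-IL-33 (adjusted p = 0.992). Arg1 changed by -4.48, 0.32 and -0.97 in the same order (adjusted p = 0.00549, 0.824 and 0.406). Over all genes 2019 were higher (12.6%) and 1010 lower (6.32%) with both antibodies than with isotype. These contrasts share the isotype libraries, and the first shares the combination libraries with the comparison above. They are given only without adjustment for the GC slope. Of the 7 isotype libraries 0 were steep, against 3 of 5 combination libraries. The mean slope was -0.127 ± 0.260 in isotype libraries (SD, n = 7) and 0.320 ± 0.838 in combination libraries (SD, n = 5). Whether anti-IL-33 acts differently in the presence of anti-IL-4Rα was tested as an interaction. It called 0 genes with edgeR, with 321 at an unadjusted p under 0.05, and 4 with DESeq2. Rnase2a had the lowest p, with an interaction of -3.95 on the log2 scale (adjusted p = 0.718). With each library's slope in the model Ptgdr alone passed, with an interaction of -3.87 ± 0.71 (SE, adjusted p = 0.04995). In that fit 1 gene passed without anti-IL-4Rα replicate 2 or replicate 5, and 0 passed without any 1 of the other 10 combination and anti-IL-4Rα libraries, with an unadjusted p under 0.05 for 430 to 1030 genes.

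Adjusting for the GC slope raised the number of calls. With the slope as a covariate 600 genes passed (3.75%), 478 lower (2.99%) and 122 higher (0.764%), and these included all 19 named above. Mmp8, Cdc42ep3 and Acoxl passed in that fit (adjusted p = 0.0208, 0.0208 and 0.0254). The fold changes of the 19 genes hardly moved, with Arg1 at -4.56 ± 0.998 and Ccl11 at -2.35 ± 0.46, while the spread around the fit fell to a biological coefficient of variation of 0.3, against 0.431 without the covariate. The 16 lower genes were picked for their difference in these same libraries, so means over parts of them are no separate test. All 16 were lower with both antibodies in the mean of the steep libraries and in the mean of the others. Ccl11, for example, averaged 5.91 CPM with both antibodies and 11.6 CPM with anti-IL-4Rα in steep libraries, and 4.47 CPM with both antibodies and 44.0 CPM with anti-IL-4Rα in the others. In 15 of the 16 the steep anti-IL-4Rα libraries averaged less than the others of their group. A fit of the steep libraries of these 2 groups, beside all libraries of the others, called 0 genes, with 944 at an unadjusted p under 0.05. The counts with the covariate depended on single libraries too, with 4 higher and 10 lower genes without combination replicate 2, 2 and 13 without anti-IL-4Rα replicate 3, and 1721 and 2260 without anti-IL-4Rα replicate 2. The number of lower genes was also 102, 889, 303 and 26 without combination replicates 1, 3, 5 and 8, and 47, 59 and 295 without anti-IL-4Rα replicates 4, 6 and 7.

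**Figure D3:**
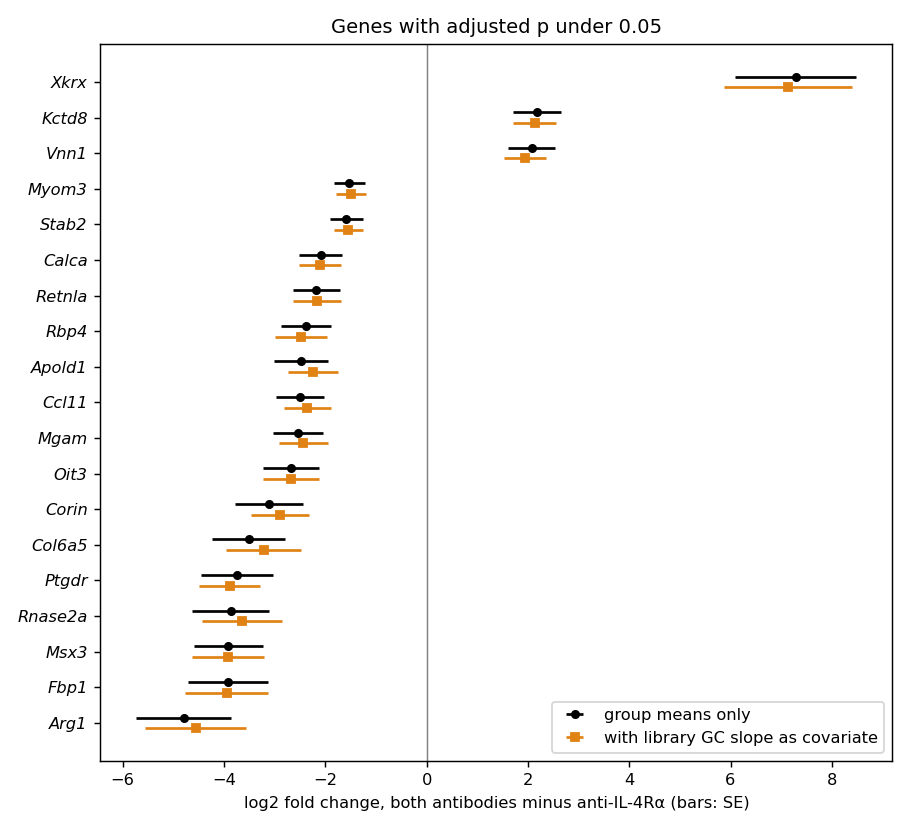
Log2 fold changes of the 19 genes with an adjusted p under 0.05, both antibodies minus anti-IL-4Rα, with bars of 1 SE. Black circles are from the fit of group means and orange squares from the fit that also held each library's GC slope; Arg1 stands at -4.80 and -4.56, and Xkrx at 7.29 and 7.13.

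**Figure D4:**
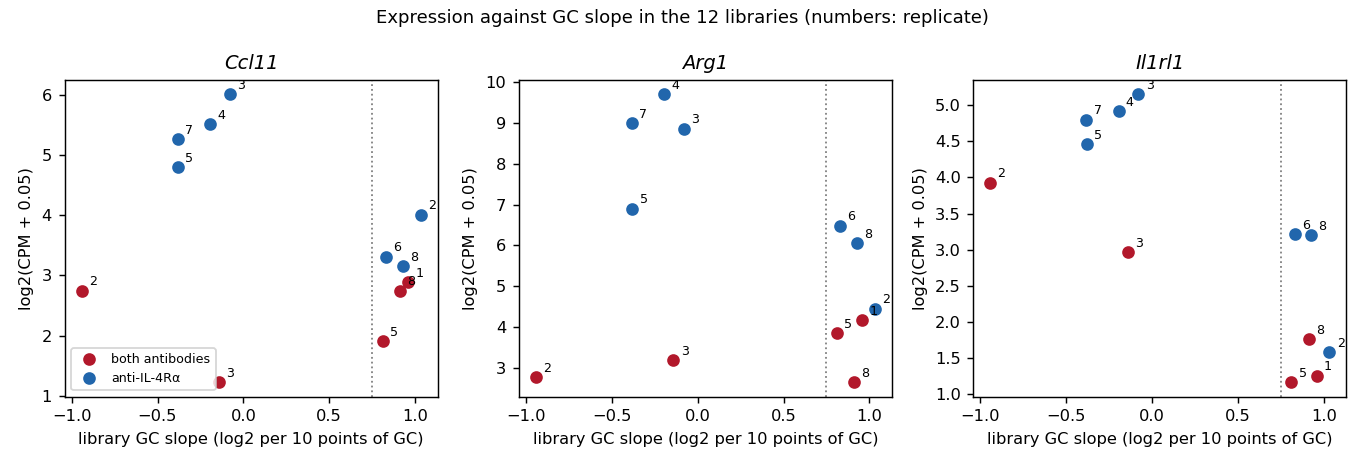
Log2(CPM + 0.05) of Ccl11, Arg1 and Il1rl1 against the GC slope of each of the 12 libraries, with replicate numbers beside the points (red for both antibodies, blue for anti-IL-4Rα) and a dotted line at a slope of 0.75. Among libraries left of the line the anti-IL-4Rα libraries lie above the combination libraries in all 3 genes, and to its right the groups lie closer together.

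The genes of the IL-33 route itself were next. Il1rl1 (Gene ID 17082, chr1:40404864-40465418), which encodes ST2, was at 2.33, 15.2, 7.77, 2.18 and 3.33 CPM with both antibodies and at 2.94, 22.0 and 35.6 CPM as the lowest, median and highest with anti-IL-4Rα. The groups overlapped, and the log2 fold change of -1.66 ± 0.54 did not pass (adjusted p = 0.222). With the slope as a covariate it was -1.72 ± 0.38 and passed (adjusted p = 0.0208), 1 of 8 genes of the IL-33 pathway list to do so. Il33 averaged 12.6 ± 11.8 CPM with both antibodies (SD, n = 5) and 18.4 ± 11.9 CPM with anti-IL-4Rα (SD, n = 7), and Il4ra averaged 321 ± 212 CPM with both antibodies (SD, n = 5) and 286 ± 182 CPM with anti-IL-4Rα (SD, n = 7). Neither passed in either fit. The mice carry human sequence in both genes, and how the counting treated it is not given in the sources used here. Il13 had a log2 fold change of -0.87 ± 0.51 and Il5 one of 0.83 ± 0.73 (adjusted p = 0.556 and 0.712). The level of Il5 came from combination replicate 3, at 2.56 CPM, with 0 CPM in replicates 1, 5 and 8. Il13ra2, the decoy receptor for IL-13, had a log2 fold change of -2.71 ± 0.77 with the covariate (adjusted p = 0.0413), and the other 10 measured type 2 cytokine and receptor genes did not pass in that fit.

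Gene lists of processes and cell types gave few calls. Of 353 measured genes in 37 lists, 4 were lower and 0 higher without the covariate, namely Ccl11, Arg1, Retnla and Rnase2a, and 22 passed with it. Among all genes tested 0.119% passed without the covariate and 3.75% with it. Of the 15 alternatively activated macrophage genes 3 were lower, or 5 with the covariate, when Pdcd1lg2, a ligand of PD-1 (log2 fold change -1.48 ± 0.34, adjusted p = 0.0238), and the matrix protein gene Fn1 (-1.71 ± 0.48, adjusted p = 0.0392) joined. The median of the list was -0.69, against 0.04 over all genes. Chil3 and Chil4, the chitinase-like products of such macrophages and of epithelium, had log2 fold changes of -0.59 ± 0.33 and -2.91 ± 1.001 and did not pass (adjusted p = 0.539 and 0.273). Chil4 was at 1.73 to 35.8 CPM with both antibodies and 25.9 to 126 CPM with anti-IL-4Rα. Interstitial macrophage genes had 0 calls of 12 in either fit and a median of -0.02.

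Matrix and remodelling genes leaned lower. The list of 20 had a median of -0.68, and 18 of its genes had a negative fold change, against 46.0% of all genes. Other lists were as one-sided, with 9 of 9 genes of group 2 innate lymphoid cells negative and 13 of 14 interferon response genes positive. None of the 20 matrix genes passed without the covariate, and 12 had an unadjusted p under 0.05, against 1707 of all 15979 genes. With the covariate 4 passed, where 3.75% of all genes did. These were thrombospondin Thbs1 at -1.92 ± 0.44 (adjusted p = 0.0238), fibrillin Fbn1 at -1.33 ± 0.33 (adjusted p = 0.0282), Fn1 and collagen V chain Col5a2 at -0.94 ± 0.27 (adjusted p = 0.0425). Thbs1 averaged 107 ± 65.8 CPM with both antibodies (SD, n = 5) and 434 ± 263 CPM with anti-IL-4Rα (SD, n = 7). Col1a1, the main chain of collagen I, had a log2 fold change of -0.23 ± 0.44, Timp1 one of -1.28 ± 0.54 and the macrophage elastase Mmp12 one of -1.44 ± 0.56 (adjusted p = 0.867, 0.395 and 0.350). The complement component C3 and the fibrinogen chain Fga passed with the covariate, at -1.37 ± 0.34 and -1.87 ± 0.50 (adjusted p = 0.0293 and 0.0343).

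Mucus and neutrophil-attracting genes did not pass without the covariate. Clca1, a secreted product of goblet cells, was at 9.32, 19.6, 11.4, 3.03 and 66.9 CPM with both antibodies and between 35.5 and 216 CPM, with a median of 128, with anti-IL-4Rα (log2 fold change -2.56 ± 0.98, adjusted p = 0.343). The gel-forming mucins Muc5ac and Muc5b had log2 fold changes of -0.64 ± 0.47 and 0.35 ± 0.44 (adjusted p = 0.656 and 0.809). Of 14 goblet cell genes 1 passed with the covariate, the anion exchanger Slc26a4 at -1.56 ± 0.38 (adjusted p = 0.0263). The neutrophil attractants Cxcl1 and Cxcl5 stood at 0.54 ± 0.37 and 1.04 ± 0.47 and the iron-binding protein gene Lcn2 at 0.36 ± 0.23 (adjusted p = 0.619, 0.421 and 0.586). All 11 measured genes of that list stayed without a call in both fits, as did the lists of neutrophil, eosinophil, mast cell, T cell, NK cell and B cell genes.

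The largest list median was that of fat cell genes, at 3.34, with 0 of 6 called without the covariate and 4 of 6 higher with it. Cfd, the gene of adipsin, was at 275, 12.0, 22.6, 16.5 and 351 CPM in the combination libraries and between 0.494 and 24.3 CPM, with a median of 4.66, in the anti-IL-4Rα libraries. The summed list was at 763 and 712 CPM in combination replicates 1 and 8, 79.7 to 124 CPM in the other 3, and 52.7 to 192 CPM with anti-IL-4Rα, so that 2 libraries carried the level. Mitochondrially encoded genes had a median of 1.02 with 10 of 10 positive and 0 called. Red blood cell genes had a median of -1.79 and 0 calls, with the highest summed level in anti-IL-4Rα replicate 2. Myom3, of muscle, was lower with both antibodies although the skeletal and heart muscle list had a median of 0.55 and 0 calls. The part of these tissue and RNA differences in the results was not tested.

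**Figure D5:**
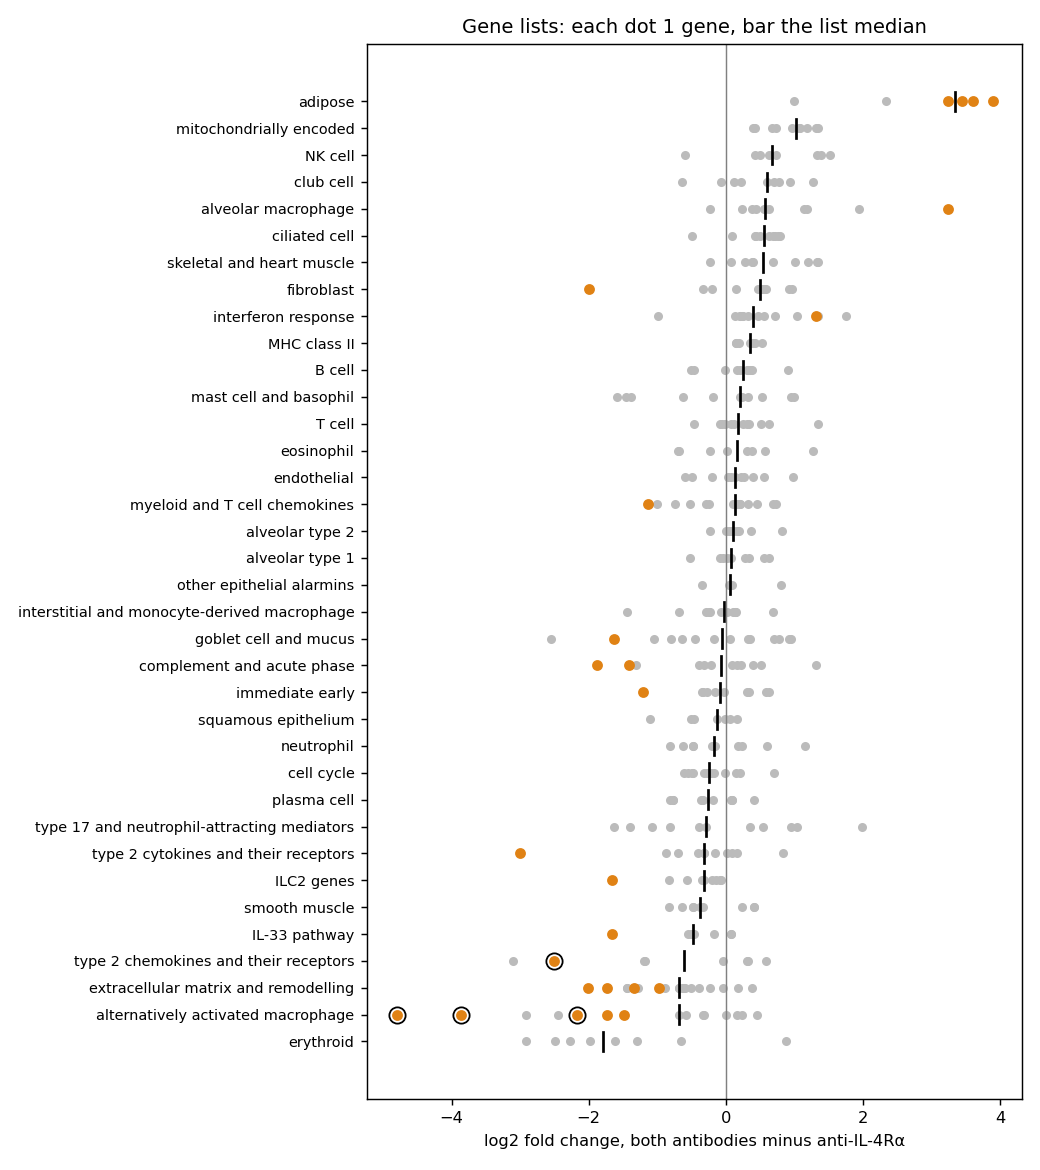
Log2 fold changes (both antibodies minus anti-IL-4Rα, fit of group means) of the genes in 36 lists with at least 4 measured genes, each dot 1 gene and each bar the list median. Orange dots pass in the fit with the GC slope and ringed dots also without it; the rings mark Ccl11, Arg1, Retnla and Rnase2a, and the fat cell list has the highest median (3.34).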

How the data were processed

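RNA was extracted with TRIzol and magnetic beads, and strand-specific poly(A) libraries from 500 ng were read as single reads of 33 cycles, per the labels' protocols. The authors deposited expected counts, that is, estimates of reads per gene, not scaled to depth (76.8% of nonzero values are whole). The build was mm10, per the submitters' processing notes. The sources used here do not name the aligner, the counter or the use of strand, so near-identical, overlapping and antisense genes are uncertain.

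Expected counts were rounded. All 43 libraries entered 1 edgeR quasi-likelihood fit of group means (version 4.0.16 under R 4.3.3, filterByExpr, TMM factors, robust, 36 residual degrees of freedom), as each group then shares 1 estimate of spread. Each contrast had a 2-sided test, adjusted by Benjamini-Hochberg over 15979 genes, at 0.05. The standard error (SE) of a log2 fold change came from its F statistic. The GC slope was computed over the 15820 tested genes with a GENCODE transcript. Symbols came from RefSeq GRCm38.p6, which named 24375 of 24475 genes, and the list name Ear11 was matched to Rnase2a as its older symbol.

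The named genes were up to 12 per direction by fold change among those passing with at least 1 CPM, completed to 6 by p, plus a fixed set of type 2, mucus and matrix genes. Groups, lists and members were chosen with earlier results of these data known. Alternatives were DESeq2 1.42.0, limma 3.58.1 voom with sample weights, other scaling factors and filters, subsets of groups, blocks, slope and length corrections, and leaving out each library. The fits were tested on simulated data. No pair of libraries agreed within sampling noise (lowest chi-square per degree of freedom 38.6).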

Additional observations from a re-analysis of the deposited data

Results flagged for a closer look

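Of 88 groups of values examined for a single library far from the rest of its group, 8 stood out, and chance alone flags about 1 group in 20. The measure is the gap to the nearest library divided by the range of the group, on log2 CPM for genes. Among combination libraries it was 0.742 for Msx3, which was at 0 CPM in replicate 3, and 0.7496 for Ccl8, which was lowest in replicate 2. Replicate 8 was lowest for Mmp8 (0.718) and Cxcl1 (0.720). Among anti-IL-4Rα libraries replicate 2 was lowest for Stab2 (0.731) and highest for Ccl17 (0.657), at 45.2 CPM against a median of 9.85. Clca1 was lowest in anti-IL-4Rα replicate 4 (0.6246), and the total count was highest in anti-IL-4Rα replicate 8 (0.697).

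For Ptgdr the interaction of anti-IL-33 with anti-IL-4Rα was just past the threshold when the GC slope was a covariate (interaction -3.87 ± 0.71 on the log2 scale, SE, edgeR adjusted p = 0.04995). Without the covariate 0 genes passed that test, and 321 had an unadjusted p under 0.05. With it, 0 genes passed when any 1 of 10 of the 12 compared libraries was left out, and 1 passed without anti-IL-4Rα replicate 2 or replicate 5.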

How the results depend on the processing

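Limits first. The counts of genes past the threshold depended on the model and on single libraries. For the 19 called genes, 505 of 759 values in alternative fits kept direction and call. A further 253 kept direction and lost the call, and 1 reversed. The alternative fits reuse the libraries in which these genes were picked, so a kept direction there is no separate support. The reversal was Xkrx at -0.61 with the slope covariate and without combination replicates 1 and 2. Depth limits genes near 0, such as Msx3 and Ptgdr. Alternatives that used the slope after leaving out libraries, and the fit of steep libraries alone, were chosen after seeing the data. The cause of these shifts was not tested.

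Other scaling factors and filters gave 3 or 4 higher and 16 or 17 lower genes. The further counts, higher and lower, were 34 and 116 with DESeq2, 4163 and 4346 with voom and sample weights, 122 and 478 with the slope covariate, 21 and 18 without steep libraries, 26 and 53 with GC and length offsets, 0 and 12 with the slope covariate and without combination replicates 1 and 2, and 0 and 0 with the library number as a covariate, with the 12 libraries alone (603 genes at an unadjusted p under 0.05), with the 4 antibody groups alone (934) and with steep libraries alone (944). Leaving out 1 library gave 1 to 305 higher and 0 to 278 lower genes, and 2 to 1721 higher and 10 to 2260 lower with the slope covariate. HDM-raised genes among the lower numbered 80 with DESeq2, 785 with voom, 294 with the slope, 44 with offsets, 9 without combination replicates 1 and 2 under the slope, 0 with steep libraries or the library number, 0 to 144 without 1 library and 8 to 991 without 1 library under the slope. HDM-lowered genes among the higher numbered 22 with DESeq2, 698 with voom, 62 with the slope, 9 without steep libraries, 15 with offsets, 0 with the library number, steep libraries or without combination replicates 1 and 2 under the slope, 0 to 178 without 1 library and 0 to 711 under the slope. With voom the opposite pattern was the larger, with 2091 HDM-raised genes among the higher and 1869 HDM-lowered genes among the lower. These opposite counts were 0 and 0 with DESeq2, and 8 and 0 with the slope. The voom sample weights were 0.334 to 0.952 in the steep combination replicates, and 0.081 and 0.218 in combination replicates 2 and 3. In anti-IL-4Rα libraries they were 0.083 to 0.318 in the steep replicates and 0.92 to 2.67 in replicates 3, 4, 5 and 7. The part of these weights in the voom counts was not tested. Interaction calls were 4 with DESeq2, 5521 with voom, 1 with the slope, 3 without steep libraries, 0 without any 1 library and 0 to 1 under the slope.

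The deviations of same-numbered libraries from their group means correlated at -0.696, 0.543, -0.515 and 0.454 for numbers 2, 3, 5 and 8. The GC slopes of these libraries, combination first, were -0.94 and 1.03, -0.14 and -0.08, 0.81 and -0.38, and 0.91 and 0.93. The correlations were negative where the slopes had opposite signs, so they cannot decide whether the replicate numbers pair the libraries. With a replicate block 0 genes were higher and 0 lower, 0 HDM-raised among the lower and 0 HDM-lowered among the higher, with 2 interaction calls. With the block and the slope covariate together the counts were 0, 6, 6, 0 and 2.

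Among genes that did not pass, the sign changed for the Ccl24 log2 fold change (1.83, steep libraries), the Ccl17 log2 fold change (-0.29 with the library number, -0.11 to 0.88 without 1 library), the Muc5b log2 fold change (-0.026, slope without combination replicates 1 and 2), the Lcn2 log2 fold change (-0.087, steep libraries), the Col1a1 log2 fold change (0.20 with voom, 0.20 with the library number, -0.70 to 0.00091 without 1 library), the Il5 log2 fold change (-3.01 with voom, -4.81 with steep libraries, -1.73 to 1.14 without 1 library) and the Il4ra log2 fold change (-0.20 to 0.51 without 1 library, -0.074 with the slope, -0.056 with block and slope, -0.38 without steep libraries, -0.12 with the slope and without combination replicates 1 and 2).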
